A study of Mus musculus with 6 samples.

Results

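The integrin subunits described here belong to receptors that recognise the Arg-Gly-Asp (RGD) sequence of fibronectin, vitronectin and the latency peptides of TGF-beta. They were taken by name, as Itgav, Itga5, Itga8, Itgb1, Itgb3, Itgb5, Itgb6 and Itgb8, after the Ensembl identifiers of the deposited counts had been matched to gene symbols. These are 8 of the 37991 genes listed. An expression filter was passed by 5 of the 8 and by 11887 genes in all, and Itga8, Itgb6 and Itgb8, which did not pass it, are described by their reads.

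An integrin is a pair of an alpha and a beta chain that spans the cell membrane. The alpha v chain pairs with several beta chains, whereas alpha 5 and alpha 8 pair with beta 1. Their heads bind matrix proteins, and the tails of most beta chains inside the cell bind talin and the kindlins, adaptors that help to switch the receptor to its active state. In skin, beta 1 integrins anchor basal keratinocytes and fibroblasts, and alpha v beta 6 appears on wounded and transformed epithelium, where it frees TGF-beta from its latency peptide.

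RNA was sequenced from mouse tumours of cutaneous squamous cell carcinoma (cSCC), a skin cancer that arises from keratinocytes. The groups were Kindlin-1 Null, in which Kindlin-1 was knocked out (3 libraries), and Kindlin-1 WT, which express it (3 libraries), and the question was how expression differs between them. The labels name cSCC as the cell line in both groups. The sources used here do not say whether each genotype is 1 clone, nor give the strain, age or sex of the mice that carried the tumours. RNA was taken from whole tumours, so fewer cells of a type and less RNA per cell cannot be told apart. Null libraries 2 and 3 share a mouse number in their titles, as do WT libraries 1 and 2, and the file name of Null library 3 disagrees with its title. The labels do not tell whether such libraries come from separate animals. P-values thus describe the spread of these 6 libraries alone, and that spread may be technical in part.

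Reads assigned to genes ranged from 1138318 to 31487255 in Null libraries and from 161711 (WT library 2) to 15529242 (WT library 3) in WT libraries. Fermt1, the gene of Kindlin-1, stood at 0, 0.0634 and 0.393 CPM (counts scaled to library size, with TMM factors) in Null libraries 1 to 3 and at 12.5, 12.3 and 64.9 CPM in WT libraries 1 to 3, so it went with the labels. Of 15 keratinocyte markers 10 passed the expression filter, among them Itga6 (56.6 to 121 CPM) and Trp63 (4.68 to 27.6 CPM), and some others were scarcely detected. Krt1 had no read in any library, Krt5 had 0 to 5 reads and Epcam 0 to 56 reads per library, and the 15 markers summed to 379 to 395 CPM in Null and 362 to 541 CPM in WT libraries. Krt14, a keratin of basal keratinocytes, fell to 8.60 ± 3.03 CPM in Null tumours, against 36.2 ± 9.49 CPM in WT tumours (SD, n = 3; edgeR adjusted p = 0.01). It was the 1 keratinocyte marker called of 10 tested, and 5 of the 10 had a log2 fold change above 0. Epcam, which was not tested, had 75 reads in Null and 8 reads in WT libraries, or 1.99 and 0.458 CPM pooled over each group. Its groups overlapped, at 0, 1.77 and 3.74 CPM in Null libraries 1 to 3 and 2.34, 0 and 0.312 CPM in WT libraries 1 to 3. WT library 3 stood apart from WT libraries 1 and 2. The 9 fibroblast markers, of which 2 rose and 2 fell, summed to 12961 to 15432.5 CPM in Null libraries and to 13140, 12090.5 and 7098 CPM in WT libraries 1 to 3. The 9 macrophage markers summed to 5343 to 6932 CPM in Null libraries and to 5527, 5548 and 2936 CPM in WT libraries 1 to 3, with WT library 3 the lowest of all on both lists.

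Promoter windows are shown for Itga5, the subunit called in the main edgeR test, and for Itgb1 and Itgb5, the most abundant beta chains. They run from 250 bases before to 50 after the start of the gene, as given by RefSeq on GRCm38.p6, which is not the build named for the counts, and are printed 5′ to 3′ on the strand of the gene. Capitals mark matches on either strand to GGGCGG (Sp1 and KLF factors), GGAATG (TEAD factors), CAGACA (SMAD factors) or TGANTCA (AP-1).
Itga5, chr15:103366742-103367041, minus strand: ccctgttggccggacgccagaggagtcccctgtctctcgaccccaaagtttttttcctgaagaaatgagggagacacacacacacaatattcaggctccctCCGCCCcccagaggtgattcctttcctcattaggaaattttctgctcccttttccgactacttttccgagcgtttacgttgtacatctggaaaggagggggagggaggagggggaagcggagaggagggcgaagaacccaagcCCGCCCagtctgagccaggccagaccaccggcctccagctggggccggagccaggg
Itgb1, chr8:128685404-128685703, plus strand: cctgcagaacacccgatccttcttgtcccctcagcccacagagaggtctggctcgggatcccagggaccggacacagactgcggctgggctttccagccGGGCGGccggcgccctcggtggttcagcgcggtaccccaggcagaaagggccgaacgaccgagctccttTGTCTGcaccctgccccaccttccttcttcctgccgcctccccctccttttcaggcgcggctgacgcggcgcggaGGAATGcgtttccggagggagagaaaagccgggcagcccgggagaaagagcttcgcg
Itgb5, chr16:33829415-33829714, plus strand: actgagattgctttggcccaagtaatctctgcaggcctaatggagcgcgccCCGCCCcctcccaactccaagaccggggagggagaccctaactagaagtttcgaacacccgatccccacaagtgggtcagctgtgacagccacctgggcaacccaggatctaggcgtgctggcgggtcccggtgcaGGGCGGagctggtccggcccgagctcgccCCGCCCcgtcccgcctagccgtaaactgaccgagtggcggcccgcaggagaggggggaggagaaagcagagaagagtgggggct
The windows of Itga5, Itgb1 and Itgb5 hold 2, 1 and 3 matches to GGGCGG, and that of Itgb1 also holds 1 match each to GGAATG and CAGACA. RefSeq windows matched 7 of the 8 subunits, all but Itgb3, with 8 windows in all. GGGCGG occurs in 4 of these 8 windows and in 35.7% of 32851 windows of all genes. The other motifs occur in 1 of 8 (GGAATG, 14.7% of all windows), 2 of 8 (CAGACA, 21%) and 0 of 8 (TGANTCA, 7.81%). No marked matches overlap.

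Among the alpha chains Itga5 was lower in the Null tumours, Itgav did not pass the test, and nearly all reads of the rare Itga8 lay in Null libraries. Itga5 (ENSMUSG00000000555, chromosome 15) encodes the alpha chain of the main fibronectin receptor, alpha 5 beta 1. It stood at 119.8, 133 and 124 CPM in Null libraries 1 to 3 and at 212, 190.45 and 301 CPM in WT libraries 1 to 3. The Null values lay close together, each was below every WT value, and WT library 3 was the highest. The means were 126 ± 6.88 CPM in Null and 234 ± 58.4 CPM in WT tumours (SD, n = 3 each). Itga5 fell to 0.525 of its WT level (log2 fold change -0.93, SE 0.25, adjusted p = 0.0494, quasi-likelihood test of edgeR, Benjamini-Hochberg adjusted over all genes tested). It was the 1 subunit called of 5 tested, where 5.79% of all tested genes were called, 2.26% as higher and 3.52% as lower. Groups that do not overlap in CPM, as for Itga5, were found for 30.5% of all tested genes, for 16.2% with Null higher and for 14.3% with Null lower.

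The Itga5 call lay just inside the threshold of 0.05. It was lost when any 1 of the 6 libraries was left out, with edgeR adjusted p between 0.0565 (without WT library 2) and 0.178 (without Null library 3). In these fits the log2 fold change lay between -1.02 and -0.71, the smallest without WT library 3. Summing the libraries that share a mouse number removed the call as well (edgeR adjusted p = 0.172 for both pairs and 0.0606 for the WT pair), as did leaving out the filter (0.0604). 

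Itgav (ENSMUSG00000027087, chromosome 2) encodes alpha v, the shared chain of the vitronectin and latent TGF-beta receptors. It stood at 159, 119 and 101 CPM in Null libraries and at 105, 67.6 and 117 CPM in WT libraries. The groups overlapped, and the lowest value, in WT library 2, rested on 11 reads. The log2 fold change was 0.29 (SE 0.27) with a 95% interval of -0.29 to 0.88 (edgeR adjusted p = 0.519). In a later annotation 5.90% of the exon bases of Itgav lie opposite exons of Gm13684. Whether the counting used strand is not given in the sources used here.

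Itga8 (ENSMUSG00000026768, chromosome 2) encodes a partner of beta 1 that binds nephronectin and is known from smooth muscle and other mesenchymal cells. It had 3, 60 and 34 reads in Null libraries 1 to 3 and 0, 1 and 0 reads in WT libraries 1 to 3. All Null libraries held reads, at 1.90 to 6.69 CPM, and the single WT read fell in WT library 2, the shallowest, where it amounts to 6.14 CPM. Pooled over each group, Itga8 stood at 2.57 CPM in Null tumours (2.09 to 3.14, 95% exact Poisson interval), against 0.0573 CPM in WT tumours (0.00145 to 0.319). The ratio of Null to WT was 44.9 with a 95% exact interval of 7.87 to 1792. The reads carry no molecular identifiers, so these intervals and floors hold counting error alone.

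The size of the Itga8 difference rested on single libraries. Without WT library 2 no WT read was left, and Itga8 was at least 14.8-fold higher in Null tumours, against a floor of 3 reads over the WT group. Without WT library 3, which holds most of the WT reads, the ratio was 3.71 (0.651 to 148), an interval that includes 1. Without Null library 2 it was 105 (17.7 to 4249). In a fit with no expression filter Itga8 was called higher (edgeR adjusted p = 0.0471), where 3.77% of 22312 genes were called and 1.47% were called higher. It was not called in DESeq2 (adjusted p = 0.222), nor in edgeR after libraries of a shared mouse number were summed in both groups (0.0589). In a later annotation 5.05% of the exon bases of Itga8 lie opposite exons of E030013I19Rik.

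**Figure D1:**
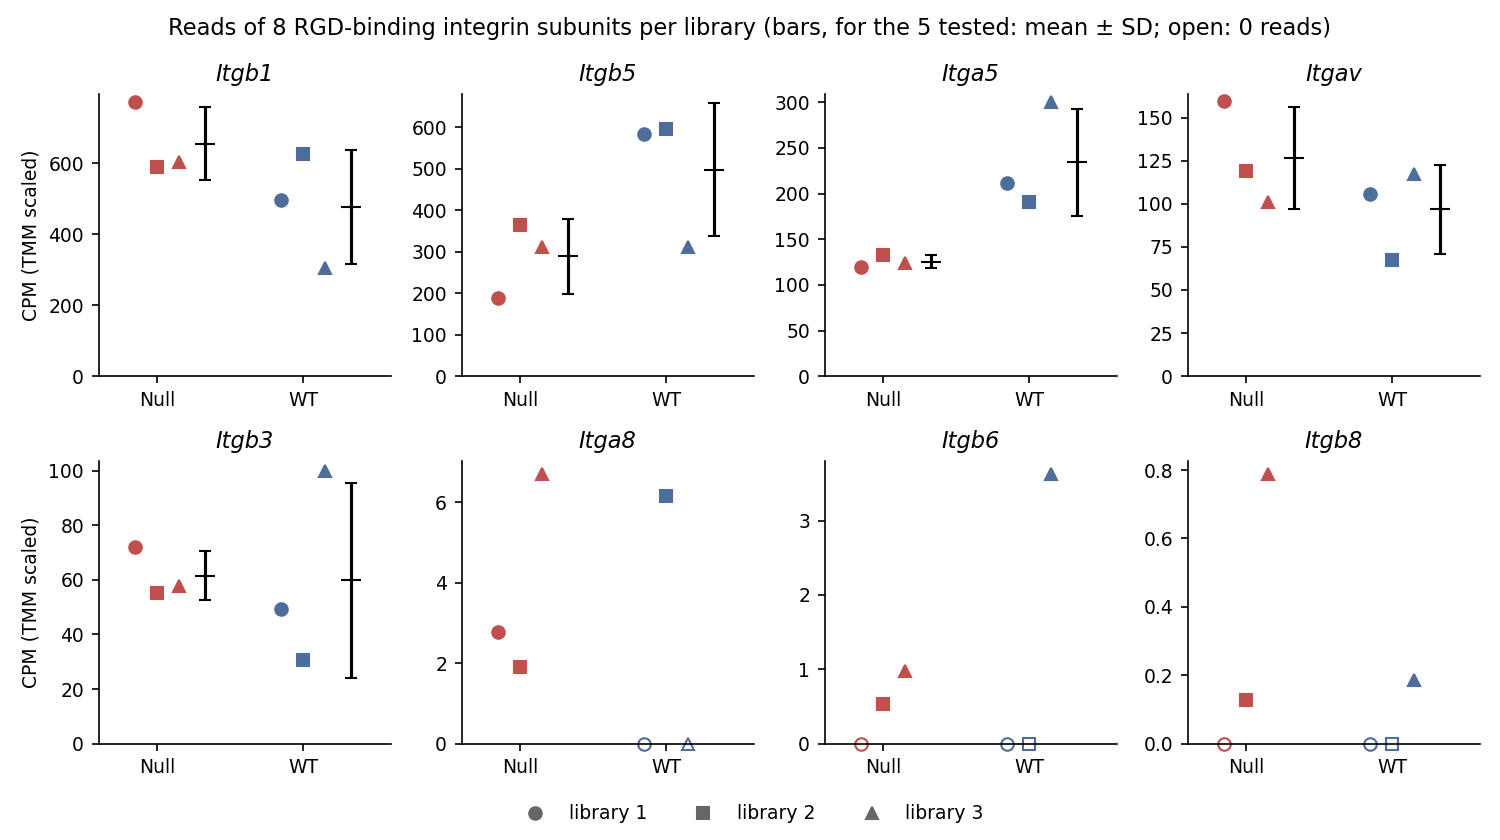
CPM (TMM scaled, linear axes from 0) of the 8 subunits in each library, Null in red on the left and WT in blue on the right. Marker shape gives the library number, open markers stand for 0 reads and black bars give the mean ± SD (n = 3) of the 5 tested subunits; Itga5 is lower in every Null library, and the groups overlap for Itgb1, Itgb5, Itgav and Itgb3.

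Of the beta chains, none of the 3 tested passed (edgeR; 1 of 3 at an unadjusted p under 0.05, as were 25.1% of all tested genes, and 0 in DESeq2), and Itgb1 and Itgb5 were by far the most abundant. Itgb1 (ENSMUSG00000025809, chromosome 8) encodes the common beta chain of collagen, laminin and fibronectin receptors. It stood at 773, 588 and 604 CPM in Null libraries and at 497, 627 and 305 CPM in WT libraries. The groups overlapped, since 2 of the 3 Null values lay below WT library 2. The means were 655 ± 103 CPM in Null and 476 ± 162 CPM in WT tumours (SD, n = 3 each). The log2 fold change was 0.48 (SE 0.31) with a 95% interval of -0.18 to 1.15 (edgeR adjusted p = 0.341).

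Itgb5 (ENSMUSG00000022817, chromosome 16) encodes a partner of alpha v in a vitronectin receptor. It stood at 189, 365 and 312 CPM in Null libraries and at 583, 596 and 312 CPM in WT libraries. WT libraries 1 and 2 were higher than all others, and WT library 3 fell within the Null range. The means were 289 ± 90.5 CPM in Null and 497 ± 160.2 CPM in WT tumours (SD, n = 3 each). The log2 fold change was -0.76 (SE 0.33) with a 95% interval of -1.48 to -0.04, and the edgeR adjusted p was 0.174. Without WT library 3 it was -1.04 (edgeR adjusted p = 0.0538).

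Itgb3 (ENSMUSG00000020689, chromosome 11) encodes a partner of alpha v on endothelial cells and osteoclasts, and of the platelet chain Itga2b. It stood at 71.9, 55.0 and 57.8 CPM in Null libraries and at 49.2, 30.7 and 99.7 CPM in WT libraries. All Null values lay between WT library 1 and WT library 3, and the value of WT library 2 rested on 5 reads. Its log2 fold change was -0.18 (SE 0.32) with a 95% interval of -0.87 to 0.52 (edgeR adjusted p = 0.766). The sign rested on WT library 3, without which it was 0.41 (edgeR adjusted p = 0.468).

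Itgb6 (ENSMUSG00000026971, chromosome 2) encodes the epithelial partner of alpha v and was scarcely detected. It had 0, 17 and 5 reads in Null libraries and 0, 0 and 58 reads in WT libraries. Null libraries had at most 0.984 CPM, and all WT reads lay in WT library 3, at 3.62 CPM, which was also the library with the most Fermt1. Pooled over each group, Itgb6 stood at 0.583 CPM in Null tumours (0.366 to 0.883, 95% exact Poisson interval), against 3.32 CPM in WT tumours (2.52 to 4.29). Without WT library 3 there was no WT read, and the floor of 3 reads over WT libraries 1 and 2 was 2.08 CPM, above the pooled Null level, so that no difference was detectable there. With no expression filter Itgb6 was not called (edgeR adjusted p = 0.267).

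Itgb8 (ENSMUSG00000025321, chromosome 12) pairs with alpha v in a receptor that releases active TGF-beta, and its tail is unlike those of the other beta chains. It had 0, 4 and 4 reads in Null libraries and 0, 0 and 3 reads in WT libraries. Pooled levels were 0.212 CPM in Null tumours (0.0916 to 0.418, 95% exact Poisson interval) and 0.172 CPM in WT tumours (0.0354 to 0.502). A difference was not detectable at this depth.

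**Figure D2:**
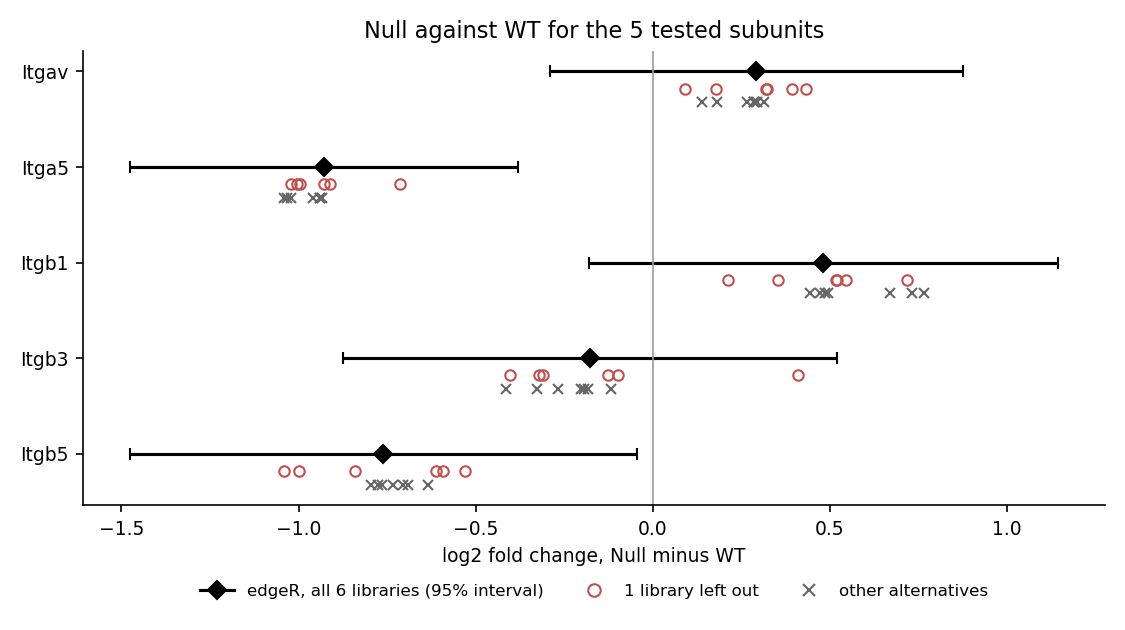
Log2 fold change (Null minus WT, horizontal axis) of the 5 tested subunits. Black diamonds with bars are edgeR estimates over all 6 libraries with 95% intervals, red circles are fits with 1 library left out and grey crosses are other alternatives; Itga5 lies below 0 in every fit shown, and Itgb3 has a fit at 0.41, without WT library 3.

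Levels of different subunits were compared per exon length, as RPKM (CPM divided by the exon length in kilobases). In Null tumours Itgb1 had the highest level (160.4 ± 25.1 RPKM), followed by Itgb5 (81.2 ± 25.5 RPKM), Itga5 (25.5 ± 1.39 RPKM), Itgav (11.8 ± 2.77 RPKM) and Itgb3 (10.4 ± 1.53 RPKM; SD, n = 3 each). In WT tumours Itgb5 came first (139.9 ± 45.1 RPKM), followed by Itgb1 (117 ± 39.6 RPKM), Itga5 (47.5 ± 11.8 RPKM), Itgb3 (10.1 ± 6.05 RPKM) and Itgav (9.0 ± 2.41 RPKM; SD, n = 3 each). Itgav and Itgb3 overlapped in both groups, so their order is not set, and the ranges of Itgb5 and Itgb1 overlapped in WT tumours. Within single libraries Itgb1 lay above Itgb5 in 3 of 3 Null libraries and Itgb5 above Itgb1 in 3 of 3 WT libraries. In WT library 2 the order rested on 97 Itgb5 and 102 Itgb1 reads, a ratio of 1.09 per length, so it is not set there. By mean level Itga8, Itgb6 and Itgb8 followed in that order in both groups. The means were 0.514, 0.0714 and 0.0275 RPKM in Null tumours and 0.278, 0.170 and 0.00564 RPKM in WT tumours. Of these neighbours Itga8 and Itgb6 did not overlap in Null tumours, while the others did. The WT mean of Itga8 came from 1 read, in WT library 2, the only WT library with Itga8 above Itgb6. Pooled WT reads were 1 for Itga8 and 58 for Itgb6, so their WT order is not set.

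The make-up of the beta chains is described per length and without a test. Itgb1 held 74.4%, 56.2% and 60.2% of the summed RPKM of the 5 beta chains in Null libraries 1 to 3 and 41.4%, 47.0% and 41.5% in WT libraries 1 to 3. Itgb5 held 20.9%, 40.1% and 35.7% in Null libraries and 55.8%, 51.4% and 48.8% in WT libraries. Neither share overlapped between the groups. Itgb1 and Itgb5 make up most of each sum, so their shares are near complements. These shares, and the order within libraries given above, restate the ratio of Itgb5 to Itgb1 given below. A ratio to Itgb1 that was lower in every Null library was found for 27.9% of all tested genes. Itgb3 held 3.64% to 4.78% in Null libraries and 1.59% to 9.38% in WT libraries, so its WT values lay on both sides of the Null values.

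The ratio of Itgb5 to Itgb1 reads was chosen after its values were seen. It was 0.244, 0.621 and 0.516 in Null libraries and 1.17, 0.951 and 1.02 in WT libraries, a difference of mean log2 ratios of -1.29. Every Null ratio was below every WT ratio, as it was for 27.9% of all tested genes set against Itgb1. With Itgb1 reads as the library scale, edgeR gave Itgb5 a log2 fold change of -1.19 (SE 0.38, adjusted p = 0.0862), which did not pass. On that scale the median over all genes was -0.63, against 0.01 with TMM scaling, and 3.59% of genes were called lower.

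**Figure D3:**
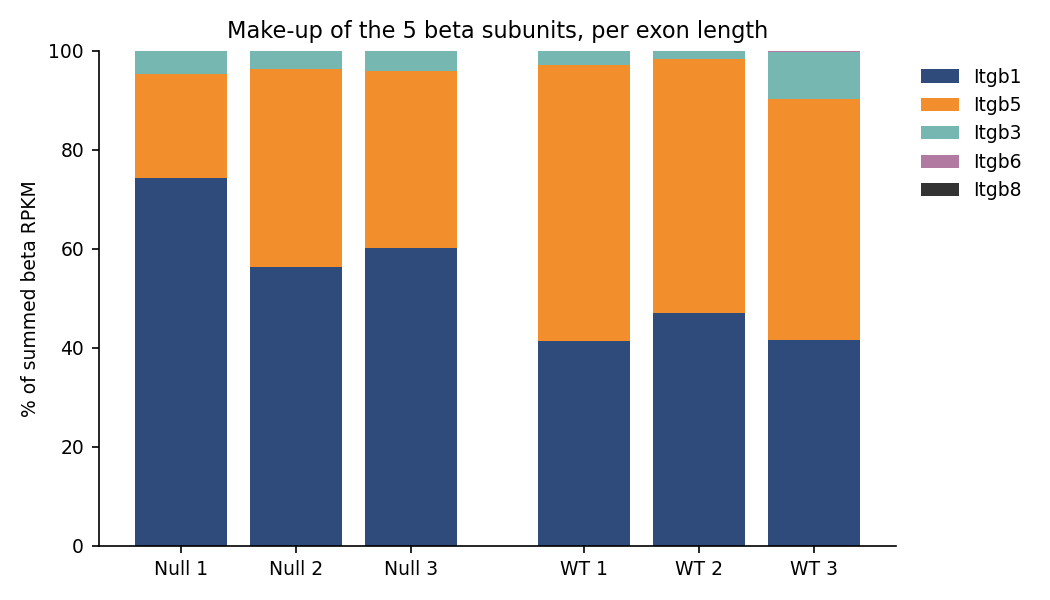
Share (percent, vertical axis) of the summed RPKM of the 5 beta chains held by each, with 1 bar per library, Null on the left and WT on the right. Itgb1 takes 56.2% to 74.4% of the Null bars and 41.4% to 47.0% of the WT bars, and Itgb6 and Itgb8 are too low to be seen, at no more than 0.283% in any library.

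Ratios of the beta partners to Itgav compare RNA reads of each beta chain with those of alpha v, and library size cancels in them. Itgb1 also pairs with other alpha chains, and pairing of the proteins was not measured. Itgb1 reads were 4.85, 4.93 and 5.97 times those of Itgav in Null libraries and 4.72, 9.27 and 2.61 times in WT libraries. The WT ratios lay on both sides of the Null ratios. None of the 5 beta chains had a ratio to Itgav that was lower in every Null library, which 22.9% of all tested genes had. Mean log2 ratios were 2.38 ± 0.17 in Null and 2.26 ± 0.89 in WT tumours (SD, n = 3 each; exact permutation p = 0.7, two-sided). The difference was 0.13, and 0.86 with the reads pooled over each group. Over the 7 ratios tested, each Benjamini-Hochberg adjusted p was 0.7, and the smallest exact p that 3 against 3 libraries allow is 0.1.

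Itgb5 reads were 1.18, 3.06 and 3.08 times those of Itgav in Null libraries and 5.53, 8.82 and 2.67 times in WT libraries. WT libraries 1 and 2 stood above every Null library, and WT library 3 lay among them. The mean log2 ratio was 1.16 ± 0.79 in Null and 2.32 ± 0.84 in WT tumours (SD, n = 3 each; exact permutation p = 0.3, two-sided), a difference of -1.16. The difference was -1.61 at its largest and -0.70 at its smallest when 1 library was left out. With the reads pooled over each group, so that the deepest libraries weigh most, it was 0.049. With Itgav reads as the library scale, edgeR gave Itgb5 a log2 fold change of -1.18 (adjusted p = 0.211), where the median over all genes was -0.24 and 2.99% of genes were called lower.

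Itgb3 reads were 0.451, 0.461 and 0.572 times those of Itgav in Null libraries and 0.467, 0.455 and 0.852 times in WT libraries. WT library 3 was the highest, and the other WT ratios lay among the Null ratios. The difference of mean log2 ratios was -0.23 (n = 3 each, exact permutation p = 0.5, two-sided) and -0.80 with pooled reads. For the rare chains, pooled reads per 1000 Itgav reads were 4.94 in Null and 28.7 in WT tumours for Itgb6, where all WT reads came from library 3. They were 1.80 in Null and 1.48 in WT tumours for Itgb8. The log2 ratios of Itgb6 and Itgb8 to Itgav rest on a pseudocount of 0.5 reads in libraries without a read (exact permutation p = 0.3 and 0.6, two-sided, n = 3 each).

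Within the beta 1 receptors the ratio of Itga5 to Itgb1 was lower in each Null library, as it was for 27.9% of all tested genes. Itga5 reads were 0.155, 0.226 and 0.205 times those of Itgb1 in Null libraries and 0.425, 0.304 and 0.984 times in WT libraries. The 95% exact interval of WT library 2, 0.196 to 0.458, reached into the Null range. Mean log2 ratios were -2.37 ± 0.28 in Null and -0.99 ± 0.87 in WT tumours (SD, n = 3 each), a difference of -1.39 with the smallest exact permutation p possible (0.1, two-sided). Without WT library 3 the difference was -0.90, and with pooled reads it was -2.04. With Itgb1 reads as the library scale the log2 fold change of Itga5 was -1.57 (SE 0.45, edgeR adjusted p = 0.0654), which did not pass, where the median over all genes was -0.63. Itga8 had 4.32 reads per 1000 Itgb1 reads in Null and 0.178 in WT tumours, pooled over each group (n = 3 each, exact permutation p of the log2 ratios = 0.4, two-sided).

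**Figure D4:**
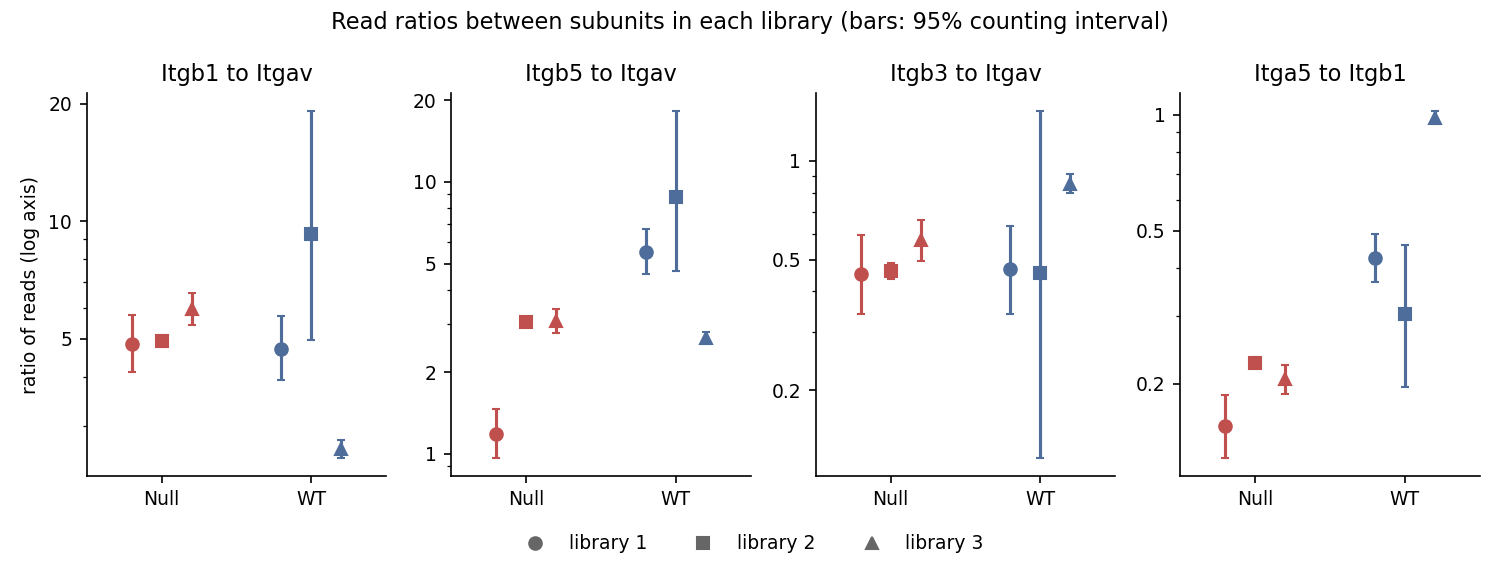
Ratio of reads of a pair of subunits in each library (log axes), Null in red on the left and WT in blue on the right, with marker shape for the library number and bars for 95% counting intervals. The ratio of Itga5 to Itgb1 is lower in every Null library (0.155 to 0.226, against 0.304 to 0.984 in WT), and WT library 3 lies outside the interval of WT library 1 in all 4 panels.

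The summed markers of some other cell types differed between the groups beside Itga5 and Itga8. The 9 skeletal muscle markers, none of them at 0, summed to 38.4 to 107 CPM in Null and 530.05 to 1402 CPM in WT libraries, and all 9 fell. The 4 leukocyte markers summed to 672 to 896 CPM in Null and 915 to 1177 CPM in WT libraries, although 3 of the 4 had a log2 fold change above 0 and 0 were called (edgeR, also 0 at an unadjusted p under 0.05). The 5 platelet and megakaryocyte markers summed to 173 to 224 CPM in Null and 95.4 to 131 CPM in WT libraries, with 2 tested and 0 called (edgeR, 1 at an unadjusted p under 0.05). The 6 adipocyte markers, of which 3 were tested and 2 fell, summed to 39.7 to 92.1 CPM in Null and 91.4 to 196 CPM in WT libraries. These sums overlapped slightly, with Null library 1 just above WT library 3. The 5 Schwann cell and nerve markers, of which 2 were tested and 1 fell, summed to 8.29 to 16.6 CPM in Null and 18.4 to 41.1 CPM in WT libraries. The 8 markers of pericytes and smooth muscle, where Itga8 is known, overlapped between the groups, at 456 to 612 CPM in Null and 449 to 834 CPM in WT libraries, and 1 of 6 tested fell. The 9 endothelial markers overlapped as well, at 223 to 261 CPM in Null and 169 to 369 CPM in WT libraries. The part of these cell types in the integrin values was not tested.

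Of 22 genes listed as integrin ligands, not all of which hold an RGD sequence, 18 were tested, and 1 rose and 3 fell. Over all tested genes 2.26% were called higher and 3.52% lower. An unadjusted edgeR p under 0.05 was found for 9 of the 18, against 25.1% of all tested genes. Their median log2 fold change was -0.34, against 0.01 over all genes tested. Postn, the gene of periostin, a matrix protein that alpha v integrins bind, stood at 4637, 4719 and 4549 CPM in Null libraries and at 2418, 2015 and 1316 CPM in WT libraries. The groups lay far apart, and Postn rose 2.42-fold (log2 fold change 1.28, SE 0.32, edgeR adjusted p = 0.0357). The call was lost without Null library 1, 2 or 3 or WT library 2 (highest edgeR adjusted p 0.121), and when libraries of a shared mouse number were summed in both groups (0.166) or in the WT group (0.0751).

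Tnc, the gene of tenascin-C, a matrix protein of wounds and tumour stroma, stood at 82.9, 141 and 110.4 CPM in Null libraries and at 584, 319 and 379 CPM in WT libraries. It fell to 0.260 of its WT level (log2 fold change -1.94, SE 0.31, edgeR adjusted p = 0.0039). Fbn1, the gene of the microfibril protein fibrillin-1, averaged 26.8 ± 8.83 CPM in Null and 95.7 ± 23.0 CPM in WT tumours (SD, n = 3 each; log2 fold change -1.83, edgeR adjusted p = 0.0061). Tnc and Fbn1 kept their calls in all 6 fits with 1 library left out. Ccn2, the gene of a matricellular protein, averaged 25.7 ± 14.6 CPM in Null and 96.8 ± 12.6 CPM in WT tumours (SD, n = 3 each; log2 fold change -1.96, edgeR adjusted p = 0.0189). Its call was lost without Null library 1 or WT library 3 (highest edgeR adjusted p 0.0959) and under a random effect of mouse number (limma adjusted p = 0.0882). Fn1, the gene of fibronectin, had the highest mean CPM of the ligands over all 6 libraries. It averaged 4417 ± 558 CPM in Null and 5441 ± 1298 CPM in WT tumours, and the groups overlapped (SD, n = 3 each, edgeR adjusted p = 0.573). Its Null mean was below that of Postn (4635 CPM), but only Null library 2 had less Fn1 (3775 CPM) than Postn (4719 CPM). Fn1 and Postn were not compared per exon length. Vtn, the gene of vitronectin, had 5, 12 and 7 reads in Null libraries and 1, 8 and 16 reads in WT libraries and was not tested.

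All 15 genes of a latent TGF-beta list were tested, and 1 rose and 2 fell, with a median log2 fold change of -0.34. Over all tested genes 2.26% were called higher and 3.52% lower. An unadjusted edgeR p under 0.05 was found for 8 of the 15, against 25.1% of all tested genes. The latency peptides of TGF-beta 1 and TGF-beta 3 hold an RGD sequence that alpha v integrins bind, and that of TGF-beta 2 does not. Tgfb2 stood at 60.8, 57.4 and 54.1 CPM in Null libraries and at 16.4, 18.4 and 21.1 CPM in WT libraries. It rose 2.97-fold (log2 fold change 1.57, SE 0.26, edgeR adjusted p = 0.0055), a call kept in all 6 fits with 1 library left out. Tgfb3 stood at 94.9, 158 and 124 CPM in Null libraries and at 439.6, 362 and 202 CPM in WT libraries. It fell to 0.383 of its WT level (log2 fold change -1.39, SE 0.32, edgeR adjusted p = 0.0283). The call was lost without Null library 1 or 3 or WT library 1 or 2 (highest edgeR adjusted p 0.120). Summing the pairs with the same mouse number ended it too (edgeR adjusted p = 0.0838 for both pairs and 0.0620 for the WT pair), as did a random effect of mouse number (limma adjusted p = 0.0505). Tgfb1 averaged 122 ± 32.7 CPM in Null and 167 ± 91.2 CPM in WT tumours (SD, n = 3 each; edgeR adjusted p = 0.645), and is given after its values were seen, as the other RGD-bearing form.

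Ltbp2, of the family of latent TGF-beta binding proteins, averaged 5.43 ± 3.28 CPM in Null and 29.3 ± 1.59 CPM in WT tumours (SD, n = 3 each; log2 fold change -2.37, edgeR adjusted p = 0.0135). Its call was lost without Null library 1 (edgeR adjusted p = 0.0666) and under a random effect of mouse number (limma adjusted p = 0.0790), and its log2 fold change was -3.22 without Null library 2. Ltbp3, which tethers latent TGF-beta and had the highest mean of the list over all 6 libraries, averaged 308 ± 88.5 CPM in Null and 541 ± 41.9 CPM in WT tumours and did not pass (SD, n = 3 each; edgeR adjusted p = 0.104). DESeq2 called Ltbp3 as lower (adjusted p = 0.0493). Ltbp1, of the same family, was above Ltbp3 in every Null library, at 396, 408 and 404 CPM, and stood at 376, 467 and 308 CPM in WT libraries.

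Of 20 adaptors that bind beta tails or join their complex 18 were tested. Of these 2 rose and 1, Fermt1, fell, with a median log2 fold change of -0.41. Over all tested genes 2.26% were called higher and 3.52% lower. An unadjusted edgeR p under 0.05 was found for 9 of the 18, against 25.1% of all tested genes. Fermt2, the gene of Kindlin-2, the widely expressed relative of Kindlin-1, stood at 210.03, 121 and 135 CPM in Null libraries and at 67.2, 79.9 and 75.0 CPM in WT libraries (log2 fold change 1.08, edgeR adjusted p = 0.0398). Itgb1bp1, the gene of a protein that binds the beta 1 tail, stood at 119.8, 79.5 and 93.3 CPM in Null libraries and at 54.7, 18.4 and 38.1 CPM in WT libraries (log2 fold change 1.21, edgeR adjusted p = 0.0357). Both calls depended on single libraries. That of Fermt2 was lost without Null library 1 or 3 or any WT library (highest edgeR adjusted p 0.129), and that of Itgb1bp1 without Null library 1 or 3 or WT library 2 or 3 (0.135). Summing libraries of a shared mouse number in both groups, or in the WT group, removed the calls of Fermt2 (edgeR adjusted p = 0.0889 and 0.0711) and Itgb1bp1 (0.0827 and 0.0535), and a random effect of mouse number removed that of Itgb1bp1 (limma adjusted p = 0.0525). Flna, the gene of filamin A, which links beta tails to actin, had the highest mean CPM of the list. It stood at 1012 ± 90.2 CPM in Null and 1645 ± 81.0 CPM in WT tumours (SD, n = 3 each, edgeR adjusted p = 0.127). DESeq2 called Flna as lower (adjusted p = 0.0242). Ilk, the gene of integrin-linked kinase, had 0 to 17 reads per library and was not tested, and 89.7% of its exon bases lie opposite exons of Rrp8 and Taf10 in a later annotation.

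Of the 9 other alpha chains that pair with Itgb1 8 were tested and 0 were called in edgeR, with 4 at an unadjusted p under 0.05, against 25.1% of all genes tested. DESeq2 also called 0, and limma with mouse number as a random effect called Itga11 as lower (adjusted p = 0.0487). Itga7, the muscle laminin receptor chain, had the highest mean CPM of the list. It stood at 199, 184 and 180.02 CPM in Null libraries and at 230.3, 283 and 427 CPM in WT libraries (log2 fold change -0.76, edgeR adjusted p = 0.115). Its groups did not overlap, as for 14.3% of all tested genes with Null lower. Itga3, Itga4 and Itga11 were also lower without overlap, and Itga6 was higher without overlap. The summed skeletal muscle markers were lower in Null libraries too. Within WT libraries 1 to 3 these sums were 1402, 707 and 530 CPM, the reverse of the order of Itga7. The part of muscle cells in the Itga7 values was not tested. The median log2 fold change of the list was -0.31.

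**Figure D5:**
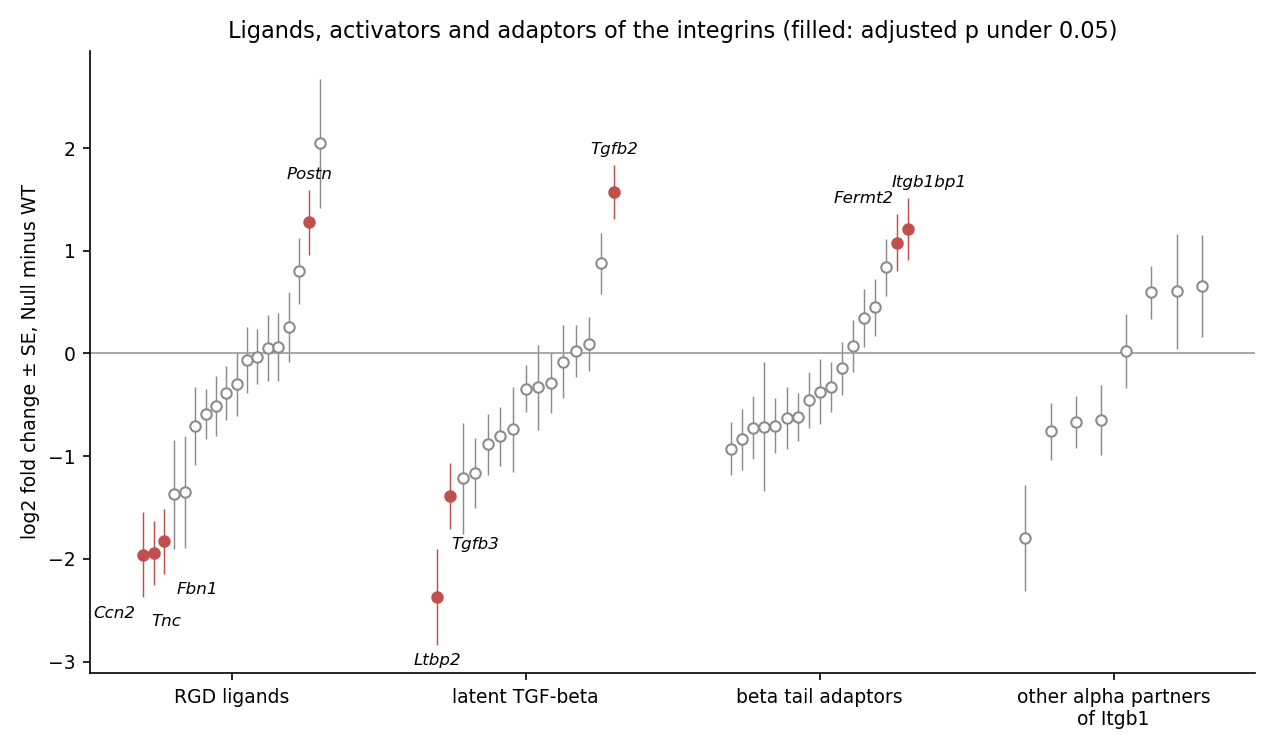
Log2 fold change ± SE (Null minus WT, vertical axis) of each tested gene of the 4 lists, ordered by value within a list. Red filled points with names have an edgeR adjusted p under 0.05, and not all genes of the list labelled RGD ligands hold an RGD sequence. Fermt1, at -8.18, is not drawn; called genes lie on both sides of 0 in the ligand and latent TGF-beta lists, and no gene of the other alpha partners is called.

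The genes most like each tested subunit were taken by the root mean square distance of centred log2 CPM over the 6 libraries, among 2249 genes (2250 for Itgb3) with a mean of at least 100 CPM. Nearest to Itga5 were Zfp384 (distance 0.0933), Srek1 (0.104) and Baz2a (0.114), and nearest to Itgav were Tmed3 (0.0963), Rad21 (0.101) and Degs1 (0.103). Nearest to Itgb1 were Stk16 (0.0725), Ufc1 (0.0761) and Smim7 (0.0851). Nearest to Itgb5 were Ptgfrn (0.0774), Fscn1 (0.116) and Ncl (0.118), and nearest to Itgb3 were Akap8l (0.0848), Atp6v0b (0.0977) and Gsdmd (0.106). No subunit was among the 3 nearest genes of another.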

How the data were processed

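RNA-seq gave 6 tumour libraries (3 Kindlin-1 Null, 3 Kindlin-1 WT, grouped by the genotype label). The authors deposited whole-number read counts per Ensembl gene, 1 table per library, without normalization. TopHat2, Cuffdiff, DESeq2 and build mm9 are named per the submitters' processing notes, with no version or role; for the counting program and its strand setting: not given in the sources used here. Lines that name no gene (reads with several alignments, 32.9% to 40.0%; in no gene, 4.63% to 12.0%; ambiguous, 1.72% to 2.11%) were left out. Symbols came from GENCODE M21 for 32919 of 37991 identifiers (86.6%), as did exon lengths.

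Counts were tested with edgeR 4.0.16 in R 4.3.3 (robust quasi-likelihood, TMM scaling, default expression filter, Benjamini-Hochberg at 0.05), which was tested on simulated data. Log2 fold changes are Null minus WT. Alternatives used DESeq2 1.42.0, limma 3.58.1 with mouse number as a random effect (estimated correlation 0.597), other filters and scalings, summed libraries of a shared mouse number, and each library left out. Ratios used reads plus 0.5 and an exact permutation test. Intervals are 95% exact ones, and floors are 3 reads, from 0.0951 CPM (Null library 2) to 18.4 CPM (WT library 2). Named genes are the 8 subunits, each called gene and the gene of highest mean CPM in each pathway list. The 3 genes most like each subunit of at least 20 CPM are named too. The subunits and lists were chosen with earlier results of these data known. Protein sequences were not used here.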

Additional observations from a re-analysis of the deposited data

How the results depend on the processing

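Itga5 was lower in Null tumours under all 13 alternatives and kept its call under 4 of them. The count of subunits called was 0 after summing both pairs that share a mouse number and 0 after summing the WT pair alone. With no expression filter, and without WT library 2, the 1 call was Itga8 in place of Itga5. Without WT library 2 Itga8 had no WT read and passed the filter through Null reads alone, so that call adds no support. The log2 fold change of Itgb3 (-0.18) ranged from -0.40 to 0.41 with 1 library left out, 0.41 being the value without WT library 3. With pooled reads the log2 ratio difference to Itgav was 0.86 for Itgb1, -0.80 for Itgb3 and -2.52 for Itgb6. With the sign changed, it was 0.049 for Itgb5 (-1.16 unpooled) and 0.14 for Itgb8 (-1.10 unpooled). To Itgb1 it was -2.04 for Itga5 and 4.03 for Itga8. The cause was not tested. With mouse number as a random effect 1 latent TGF-beta gene and 1 other alpha partner of Itgb1 were called. Adaptors called numbered 5 in DESeq2, 1 with both pairs summed and 1 with the WT pair summed. Leaving out 1 library gave 179 to 855 genes called in all (688 with all 6; 179 without Null library 1, 225 without Null library 3, 281 without WT library 3), 0 to 1 subunits, 2 to 4 ligands, 1 to 4 latent TGF-beta genes, 1 to 3 adaptors and 0 to 0 other alpha partners. Differences of mean log2 ratios then ranged from -0.31 to 0.58 (Itgb1 to Itgav), -0.37 to 0.06 (Itgb3 to Itgav), -1.61 to -0.70 (Itgb5 to Itgav), -2.81 to -1.04 (Itgb6 to Itgav), -2.02 to 0.25 (Itgb8 to Itgav), -1.74 to -0.90 (Itga5 to Itgb1) and 0.66 to 4.24 (Itga8 to Itgb1). No paired analysis was possible because the replicate numbers only follow the order of the samples. Depth limits Itga8, Itgb6 and Itgb8, since 3 reads in WT library 2 are 18.4 CPM, above every level of these genes.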

Other observations

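Itga2b, the platelet chain that pairs with Itgb3 and also binds RGD sequences, is outside the 8 subunits. It stood at 55.3, 34.6 and 61.0 CPM in Null libraries 1 to 3 and at 25, 18.4 and 54.3 CPM in WT libraries 1 to 3. The groups overlapped, WT library 3 lay with the Null libraries as it did for Itgb5, and the value of WT library 2 rested on 3 reads. The log2 fold change of Itga2b was 0.36 (SE 0.35, edgeR adjusted p = 0.544).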
